A study of Mus musculus with 24 samples.

Results

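The aryl hydrocarbon receptor battery was followed here through mouse liver organoids as 7 genes, namely Ahr, Arnt, Ahrr, Tiparp, Cyp1a1, Cyp1a2 and Cyp1b1. They were taken by symbol out of the 16695 symbols that all 3 expression tables of the study list, and each of the 7 was found in every table. They were picked after Cyp1b1 had been seen to peak at passage 5 (P5) of the cholangiocyte organoids, so the P5 values of those organoids chose the set and are given as a description with no test.

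The aryl hydrocarbon receptor is a ligand-activated transcription factor that waits in the cytosol in a chaperone complex. After a ligand binds, for example a dioxin, a polycyclic aromatic hydrocarbon or a tryptophan metabolite, the receptor enters the nucleus, pairs with Arnt and binds DNA elements with the core GCGTG. Its best known targets in liver are the CYP1 monooxygenases, together with Ahrr and Tiparp, which act back on the receptor as brakes.

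The study cultured liver cells of adult wild-type BALB/c mice in Matrigel. By the study's account the libraries labelled Primary hepatocytes came from cells depleted of EpCAM+ cells and purified on Percoll, and Hep-Orgs P1, P5 and P10 were organoids grown from such cells. Hepatocyte organoid medium contained CHIR99021, FGF7, the Notch inhibitor DAPT and dexamethasone, a glucocorticoid. Cho-org-P0, P5 and P10 were cholangiocyte organoids (Cho-Orgs) grown from EpCAM+ cells, in a medium with forskolin, Noggin and Wnt3a. Nicotinamide, EGF, HGF, FGF10, A83-01 and R-spondin1 were in both media, and the labels and methods name no receptor ligand added to any group. Each of these 7 groups had 3 libraries. The remaining 3 libraries, labelled Grape_like_hep_org, Intermediate_hep_org and Round_like_hep_org, were Smart-Seq libraries of P0 Hep-Orgs picked by shape, 1 for each shape. By the study's account these organoids had grown in hepatocyte medium without DAPT and dexamethasone. The study's accounts describe the replicates both as mice and as independent cultures, so p-values measure the spread between these libraries.

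RefSeq windows around the transcription start (GRCm38.p6, 250 bases before to 50 bases after) were at hand for 6 of the 7 genes, the exception being Ahr. The stretch upstream of the start is shown for Ahrr and the CYP1 genes, because these 4 genes differed most between passages. It is printed 5′ to 3′ on the gene's own strand, without any base that lies in an annotated exon, and capitals mark the core element GCGTG or its reverse complement CACGC. The windows are chr13:74292332-74292581 on the minus strand for Ahrr, chr9:57697363-57697612 on the plus strand for Cyp1a1, chr9:57683704-57683905 on the minus strand for Cyp1a2 and chr17:79715062-79715311 on the minus strand for Cyp1b1.
Ahrr: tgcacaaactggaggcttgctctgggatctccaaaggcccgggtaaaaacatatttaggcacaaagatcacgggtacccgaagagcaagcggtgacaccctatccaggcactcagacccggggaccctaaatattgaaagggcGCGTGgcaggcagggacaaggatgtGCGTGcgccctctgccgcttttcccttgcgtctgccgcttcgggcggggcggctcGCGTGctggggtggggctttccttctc
Cyp1a1: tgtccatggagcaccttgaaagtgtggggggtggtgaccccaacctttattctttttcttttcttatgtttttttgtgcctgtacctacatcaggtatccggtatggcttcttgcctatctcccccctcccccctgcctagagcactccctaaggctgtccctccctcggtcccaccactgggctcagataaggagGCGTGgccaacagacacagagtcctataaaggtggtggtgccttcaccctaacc
Cyp1a2: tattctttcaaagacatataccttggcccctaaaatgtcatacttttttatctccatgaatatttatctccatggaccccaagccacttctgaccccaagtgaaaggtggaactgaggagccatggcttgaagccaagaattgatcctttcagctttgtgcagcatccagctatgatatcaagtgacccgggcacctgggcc
Cyp1b1: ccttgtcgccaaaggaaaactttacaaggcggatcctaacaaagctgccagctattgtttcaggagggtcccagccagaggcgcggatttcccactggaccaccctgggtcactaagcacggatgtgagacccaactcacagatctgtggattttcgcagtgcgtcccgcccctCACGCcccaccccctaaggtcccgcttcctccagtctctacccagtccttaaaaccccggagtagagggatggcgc
In the full windows, searched on both strands, the core element began at -107, -82 and -27 from the start of Ahrr, at -54 in Cyp1a1, at -76 on the other strand in Cyp1b1, at -29 in Arnt and at -170 on the other strand in Tiparp. The Cyp1a2 window held none. The RefSeq start of Cyp1a1 lies inside the gene span that the hepatocyte table lists. That is 5 of 6 windows, beside 32.4% of the 32851 windows of the genome that hold GCGTG. The longer element TNGCGTG, which contains the core, was found in 5.07% of all windows and among the 6 in Ahrr, and the E-box CACGTG, which pairs of Arnt can bind, was found in 7.15% of all windows and in none of the 6. A match here is a stretch of letters and not a measured binding site.

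Levels are in FPKM, a fragment count divided by gene length and by library size, so that different genes can be set side by side. Recovered depth was 14068906 to 27160365 fragments per library in the hepatocyte table, and depth was estimated at 37470000 to 39930000 fragments for Cho-Orgs and 40040000 to 40380000 for Smart-Seq. The 3 tables were scaled separately and were never tested against each other. Gene lengths behind FPKM also differed, with 2013 bases for Cyp1a2 in the hepatocyte table and an estimated 1892 in the Cho-Org table. The libraries labelled Primary hepatocytes had a mean of 112 FPKM of Alb beside 48.6 FPKM of Krt7 and 237 FPKM of Krt19, keratins that mark bile duct cells, and Hep-Orgs P10 had 111, 49.9 and 240 FPKM of the same genes. Cyp2e1, a P450 that adult hepatocytes hold in large amounts, was at or under 0.0300 FPKM in the libraries labelled Primary hepatocytes. Epcam, the gene of the depletion, was at 265 to 275 FPKM in them and at 276 to 279 FPKM in Hep-Orgs P10. The former are called libraries labelled primary hepatocytes throughout. In Cho-org-P0 the 10 hepatocyte markers summed to 7212 to 8139 FPKM, against 213 to 260 FPKM at P5 and 81.0 to 87.1 FPKM at P10. The 10 cholangiocyte markers summed to 6167 to 7751 FPKM at P0, 4302 to 4471 FPKM at P5 and 4202 to 4272 FPKM at P10. Spp1 alone had means of 3682, 805 and 527 FPKM, while Krt7 had 248, 689 and 920 FPKM and Krt19 1045, 1339 and 1402 FPKM. From P0 to P10, 3 of these 10 markers rose and 5 fell by limma, beside 41% and 31.3% of all genes tested. Both marker lists were thus high at P0. In such bulk libraries, fewer cells of a type and less RNA per cell cannot be told apart.

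In Cho-Orgs the means of Ahr and Arnt varied much less with passage than those of the CYP1 genes. Ahr (ENSMUSG00000019256, chromosome 12 from 35497974 to 35535038 in the file's mm10 coordinates) had 11.8, 17.5 and 12.9 FPKM in the P0 libraries M1, M2 and M3, then 10.6, 11.96 and 10.1 FPKM at P5 and 10.9, 11.4 and 11.2 at P10. Library M2 of P0 stood above all others, and P0 overlapped with P5 but not with P10. From P0 to P10 the log2 fold change of FPKM + 1 was -0.29 (SE 0.12), which did not pass the threshold of 0.05 (limma, adjusted p = 0.0520). With the replicate number as a block the same change passed (limma, adjusted p = 0.0207), and it passed with median-ratio size factors (adjusted p = 0.0232), with a filter at a mean of 5 FPKM (0.0482) and without the libraries numbered 1 (0.0458), while the adjusted p over all alternatives reached 0.134. Arnt (ENSMUSG00000015522, chromosome 3 from 95434388 to 95497240), the partner with which the receptor binds DNA, had 16.5, 17.9 and 17.8 FPKM at P0, 18.5, 19.0 and 19.0 FPKM at P5 and 15.6, 15.3 and 15.6 at P10. The 3 passages did not overlap for Arnt, as for 61.5% of the genes tested between P0 and P5, 74.2% between P5 and P10 and 75.1% between P0 and P10. Arnt fell by 0.16 (SE 0.047) from P0 to P10 in log2 (limma, adjusted p = 0.0125). This small change did not pass when the libraries numbered 2 (adjusted p = 0.114) or those numbered 3 (adjusted p = 0.119) were left out.

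Of the brakes, Ahrr was under 1 FPKM in every Cho-Org library and highest at P5. Ahrr (ENSMUSG00000021575, chromosome 13 from 74211118 to 74292331) encodes a repressor that competes with the receptor for Arnt. Its levels were 0.0952, 0.112 and 0.124 FPKM at P0, 0.598, 0.380 and 0.396 FPKM at P5 and 0.0317, 0.0368 and 0.0414 at P10. These stand for 22, 26 and 28 fragments at P0, for 131, 84 and 88 at P5 and for 7, 8 and 9 at P10. Each P5 library was above each library of both other passages. Summed over the libraries, P5 was 4.15 times P0 and 12.5 times P10, as a description. Ahrr was the 1 member below the filter of 1 FPKM in at least 3 libraries, and it was not tested.

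Tiparp (ENSMUSG00000034640, chromosome 3 from 65528410 to 65555518), an ADP-ribosyltransferase that modifies the receptor and limits its activity, had 9.79, 11.7 and 11.2 FPKM at P0 and 11.0, 12.7 and 12.2 FPKM at P5. At P10 it had 6.38, 5.73 and 6.41 FPKM. The P10 libraries lay below all others, while P0 and P5 overlapped. Tiparp fell by 0.73 (SE 0.078) from P0 to P10 in log2 (limma, adjusted p = 1.78e-05).

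The 3 CYP1 genes took different courses. Cyp1b1 (ENSMUSG00000024087, chromosome 17 from 79706953 to 79715041) encodes a P450 of steroid and hydrocarbon metabolism that is best known outside hepatocytes. Its levels were 9.21, 5.21 and 8.72 FPKM at P0, 37.5, 42.1 and 35.8 FPKM at P5 and 11.9, 11.8 and 11.3 at P10. The P5 mean was 4.99 times the P0 mean and 3.30 times the P10 mean, and the P10 mean was 1.51 times the P0 mean. On the log2 scale the differences were 2.21 from P0 to P5, -1.64 from P5 to P10 and 0.57 from P0 to P10. Without the libraries numbered 2 the first of these was 1.92, since M2 was both the lowest at P0 and the highest at P5.

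Cyp1a1 (ENSMUSG00000032315, chromosome 9 from 57687928 to 57703824) encodes the most strongly inducible enzyme of the battery. Its levels were 8.33, 8.24 and 7.45 FPKM at P0, 3.43, 4.29 and 3.90 FPKM at P5 and 0.0188, 0.0191 and 0.115 at P10. The passages were ordered without overlap, with 925, 917 and 811 fragments at P0 against 2, 2 and 12 at P10. P0 was 158 times P10 in summed fragments per depth and P5 was 76.3 times P10, both as a description. Of the 16 fragments at P10, 12 were in M3, and M1 and M2 lay under the floor of 3 fragments. Without M3 of P10 the folds were 422 and 204, so their size depends on that library. The log2 difference of FPKM + 1 from P0 to P10 was -3.10.

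Cyp1a2 (ENSMUSG00000032310, chromosome 9 from 57676937 to 57683703), the neighbour of Cyp1a1 on the opposite strand and an enzyme typical of hepatocytes, had 26.6, 8.84 and 14.4 FPKM at P0. It was at 0.0420, 0.153 and 0.138 FPKM at P5, which is 3, 11 and 10 fragments, and at 0 in each P10 library. The P0 libraries were all far above the later ones, with M1 the highest and M2 the lowest. Against the floor of 3 fragments per library, 0.0423 FPKM, the P0 mean was at least 393-fold higher than P10. The log2 difference from P0 to P10 was -4.01. Cyp1a1 and Cyp1a2 passed the low-value filter only through the earlier passages, so they had to differ from P10 and no p is given for them. Over the 9 hepatocyte markers above the filter the median log2 difference between the same passages was -6.11. Among them Cyp2f2 went the other way, with means of 0.818, 9.49 and 3.29 FPKM at P0, P5 and P10. Hnf4a changed little, with means of 64.3, 60.9 and 56.4 FPKM. Alb went from a mean of 4994 FPKM at P0 to 79.5 FPKM at P5 and 0.584 at P10, while the mean of Cyp1a1 went from 8.01 to 3.87 and 0.0510 FPKM. The part of the hepatocyte markers in the lower values of Cyp1a1 and Cyp1a2 was not tested.

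From P0 to P10, Arnt and Tiparp fell and Ahr did not pass, beside 31.3% of the 11593 genes tested that fell and 72.3% that passed in either direction. Of the other members, Cyp1a1 and Cyp1a2 were admitted by their high passages, Ahrr was below the filter, and Cyp1b1, the only member with a higher mean at P10 than at P0 in Cho-Orgs, was not tested because its values had chosen the set. In the comparisons with P5, which helped to choose the set, 56.6% of all genes tested passed between P0 and P5 (34% higher at P5) and 61.5% between P5 and P10 (30.5% lower at P10). Arnt and Cyp1b1 were the 2 of 6 members above the filter with all P5 libraries above all P0 and P10 libraries, beside 13.3% of the genes tested, and Ahrr, below the filter, had the same pattern. Cyp1b1 was also among the 92 genes (0.794%) that did so with a log2 difference of at least 1 from both passages, and ranked 29 among them by the smaller of its differences.

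**Figure D1:**
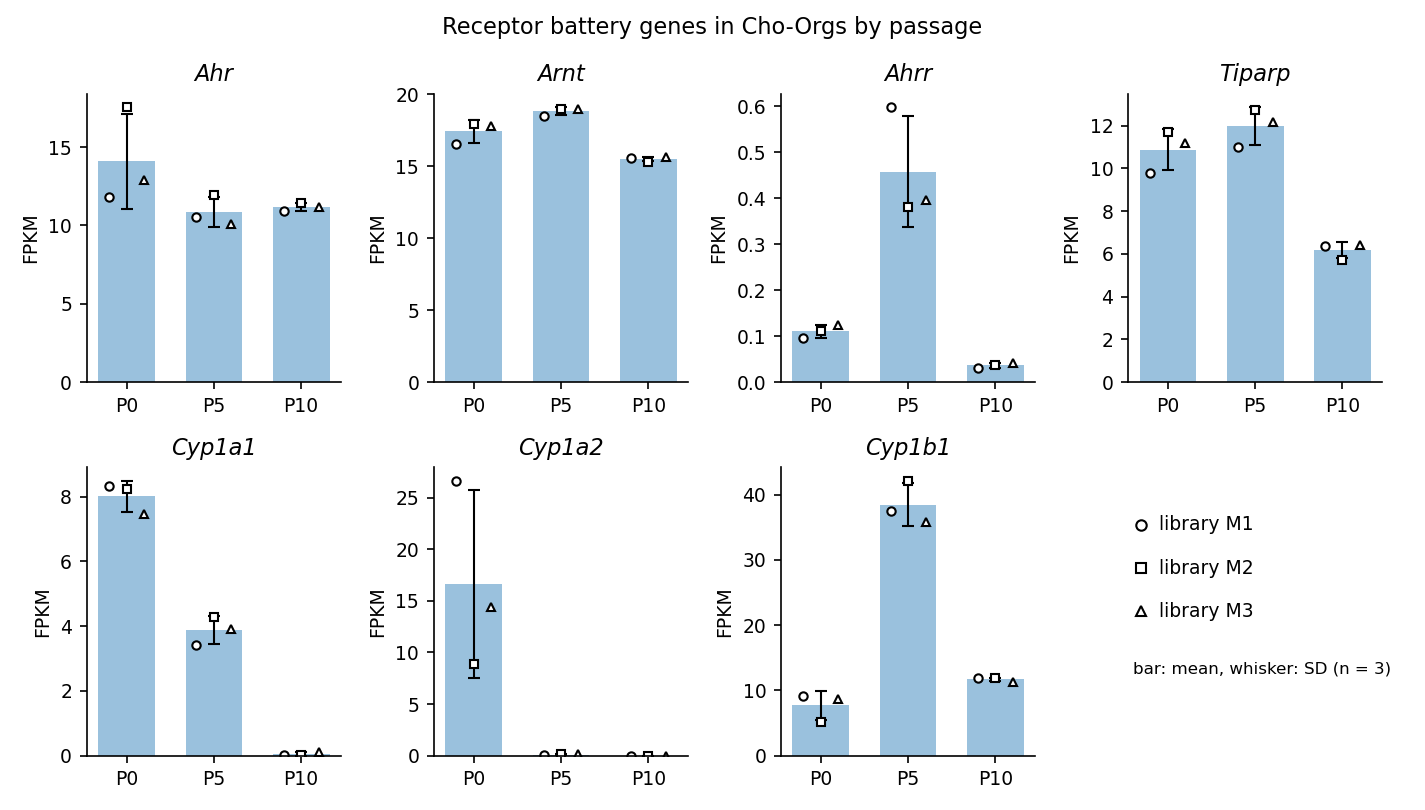
FPKM of each member in Cho-Orgs at P0, P5 and P10, on linear axes that start at 0. Bars are means of 3 libraries, whiskers are SD and symbols are single libraries. Cyp1b1 reaches 35.8 to 42.1 FPKM at P5, whereas Cyp1a1 and Cyp1a2 are at or under 0.115 FPKM at P10.

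Because of these separate courses the make-up of the CYP1 family changed with passage. Cyp1b1 took 24.3% ± 3.92 (SD, n = 3) of the summed FPKM of the 3 genes at P0, 90.6% ± 0.839 at P5 and 99.6% ± 0.487 at P10. The sum itself was 32.3 ± 11.0 FPKM at P0, 42.5 ± 3.61 at P5 and 11.7 ± 0.241 at P10. At P0 Cyp1a2 held the largest mean share, 49.0%, and Cyp1a1 held 26.7%. At P5 Cyp1a1 still held 9.12%, when Cyp1a2 was down to 0.259%.

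**Figure D2:**
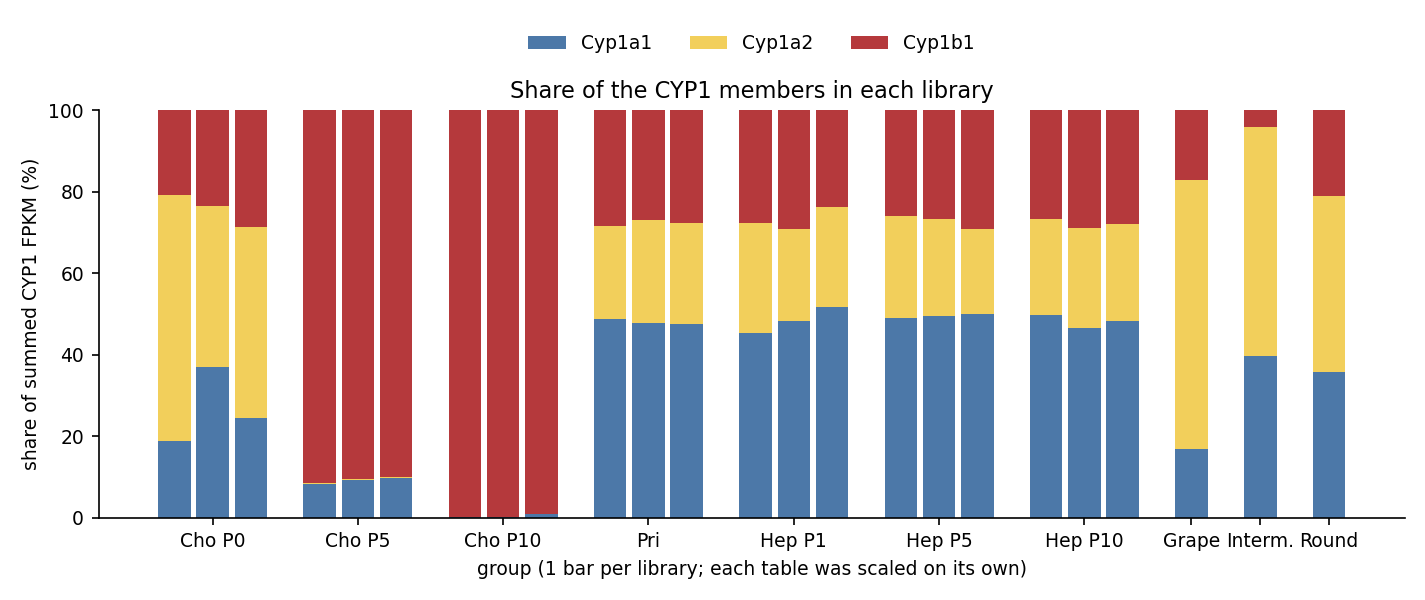
Share of Cyp1a1, Cyp1a2 and Cyp1b1 in their summed FPKM (%), 1 bar for each of 24 libraries, with the libraries labelled primary hepatocytes given as Pri. Cyp1b1 fills 89.9% to 91.5% of the Cho-Org bars at P5 and 99.0% to 99.8% at P10, against 23.8% to 29.2% in the 12 libraries of the hepatocyte table. The Cho-Org and hepatocyte tables differ in scaling and in gene lengths.

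Markers of other liver cells were read beside the Cyp1b1 values. None of 8 stellate and mesenchymal markers reached a mean of 1 FPKM in any Cho-Org passage. Their sum was 0.506 to 1.23 FPKM at P0, 0.381 to 0.583 FPKM at P5 and 0.0809 to 0.158 FPKM at P10, and Acta2 and Dcn were at 0 at P5. The 8 macrophage markers summed to 42.2 to 48.4, 72.1 to 77.3 and 10.1 to 10.5 FPKM at P0, P5 and P10. Nearly all of the P5 sum was Cd68, with a mean of 74.5 FPKM, while Adgre1, Clec4f, Lyz2, Ptprc and Vsig4 were at 0. The 8 endothelial markers summed to 10.7 to 17.8 FPKM at P5 and to at most 1.66 FPKM at the other passages, with Tek at a mean of 13.2 FPKM and Clec4g at 0 at P5. All 8 proliferation genes fell both from P0 to P5 and from P5 to P10, beside 22.6% and 30.5% of all genes tested, and their sum was 324 to 473, 181 to 186 and 80.1 to 86.9 FPKM. The part of Cd68, Tek or proliferation in the Cyp1b1 values was not tested.

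The genes whose levels followed Cyp1b1 most closely over the 9 Cho-Org libraries were sought among 1675 genes. These had a maximum of at least 5 FPKM and a range of group means of at least 1 in log2. Genes without a proper name, such as predicted genes, were passed over. By Pearson's r of log2(FPKM + 1) the closest named genes were Rdm1 (r = 0.984), the cyclin gene Ccng1 (0.982), Htatip2 (0.978), Zfp703 (0.977) and the water channel gene Aqp5 (0.975). Their libraries share the passages and the scaling, so r is given as a description. Aqp5 was the most abundant of them, with means of 589, 1573 and 742 FPKM at P0, P5 and P10. Rdm1 had 6.02, 16.2 and 8.45 FPKM, and Ccng1 had 73.3, 157 and 101 FPKM. Among the members, r with Cyp1b1 was 0.85 for Ahrr, 0.56 for Arnt, 0.36 for Tiparp, -0.012 for Cyp1a1, -0.62 for Cyp1a2 and -0.65 for Ahr. Spearman's rho was lower for some of these, with 0.38 for Ahrr, 0.42 for Arnt, 0.20 for Tiparp and -0.45 for Cyp1a1, and was -0.41 for Cyp1a2 and -0.62 for Ahr. With Spearman's rho in place of r, 1 of the 5 genes was among the top 5 again.

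In the hepatocyte table each gene of the battery lay in a narrow range over all 12 libraries. Ahr ranged from 16.1 to 17.5 FPKM with a median of 16.9. Arnt ranged from 11.8 to 13.1 FPKM with a median of 12.5, and Tiparp from 13.7 to 15.2 FPKM with a median of 14.3. Ahrr had 0 to 0.0118 FPKM, which is 0 to 2 fragments, and no library went over the floor of 3 fragments. All 3 CYP1 genes were present together, with group means in the order Cyp1a1, Cyp1b1, Cyp1a2 in each of the 4 groups.

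Cyp1a1 had a mean of 12.5 ± 0.222 FPKM (SD, n = 3) in the libraries labelled primary hepatocytes, 13.3 ± 1.17 in Hep-Orgs P1, 12.8 ± 0.265 at P5 and 12.9 ± 1.08 at P10. Cyp1a2 had 6.31 ± 0.482, 6.71 ± 0.281, 6.02 ± 0.572 and 6.40 ± 0.201 FPKM in the same order. Cyp1b1 had 7.19 ± 0.220, 7.38 ± 0.956, 7.09 ± 0.442 and 7.40 ± 0.0897 FPKM. All groups overlapped for Cyp1a1 and Cyp1b1, while for Cyp1a2 the P1 libraries (6.47 to 7.02 FPKM) lay above the P5 libraries (5.37 to 6.41 FPKM). Arnt separated for the same pair in the other direction, with means of 12.3 FPKM at P1 and 12.7 FPKM at P5. The share of all genes that separate in this way was not computed for the hepatocyte table, so these separations are a description only. No P5 peak of Cyp1b1 was detected in the hepatocyte table, whose libraries played no part in the choice of the members. Its log2 fold change was -0.045 (SE 0.067) from P1 to P5 (limma, adjusted p = 1.00) and 0.055 (SE 0.067) from P5 to P10 (adjusted p = 0.814).

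Over 6 pairs of groups and the 6 members above the filter, 36 tests gave 0 calls, with 1 unadjusted p under 0.05 by limma and 0 by limma-voom on the recovered fragments. That one was Cyp1a2 from P1 to P5 (limma, unadjusted p = 0.0452), with the lowest log2 fold change of all 36, -0.14, and the highest was 0.078. The lowest adjusted p was 0.690. The background was as low. Of the 10986 genes tested, 0.0091% passed in Hep-Orgs P1 and 0.0091% in P5 against the libraries labelled primary hepatocytes, 0.0273% in P10 against P5 (0.0182% higher and 0.0091% lower), and 0% in the other pairs, with 436 to 1266 unadjusted p under 0.05 for each pair. Scatter between libraries was 1.93 to 3.14 times the counting variance for the 12 pairs of 1 group and 1.82 to 4.59 times for the 54 pairs of different groups. The share of Cyp1b1 in the CYP1 sum was 26.9% to 27.8% as a mean of each group.

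**Figure D3:**
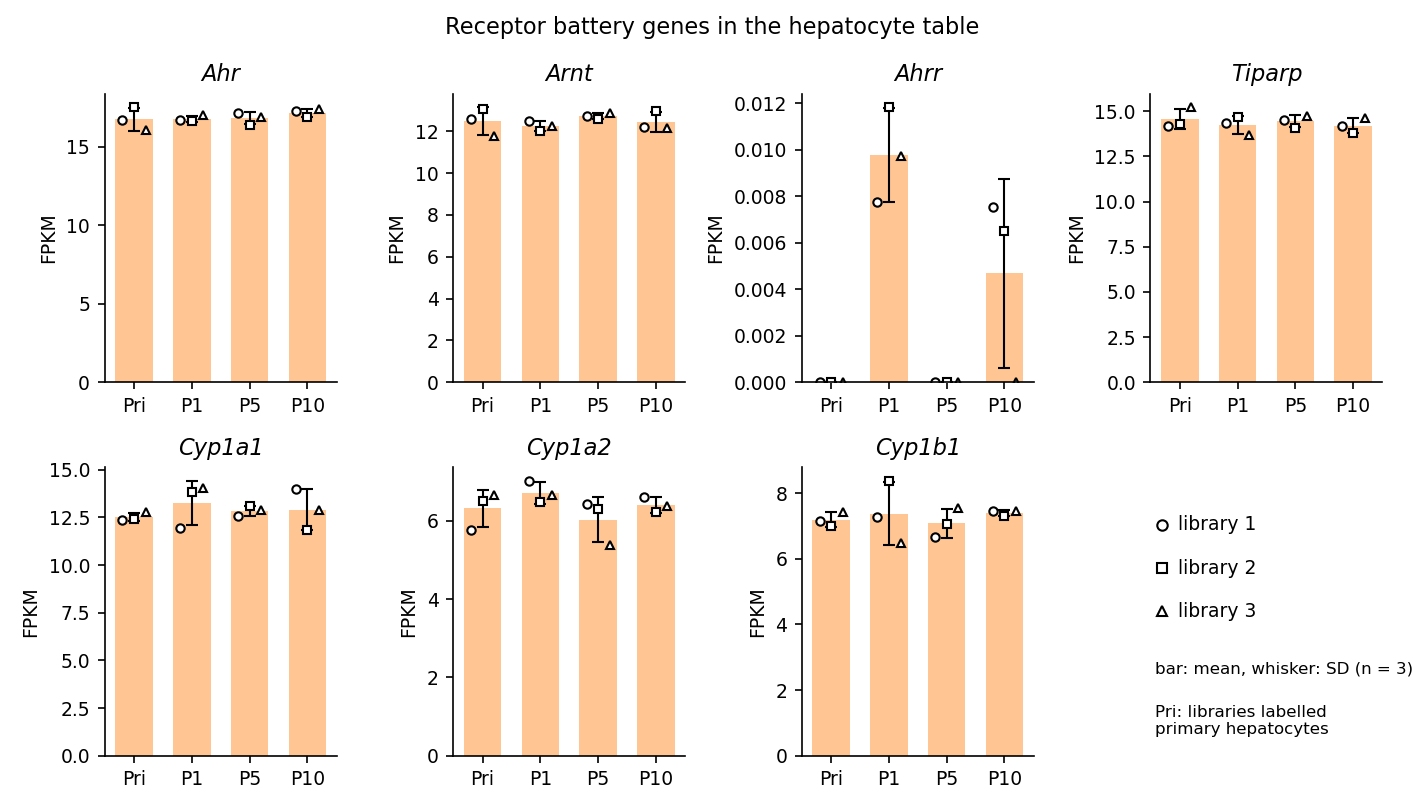
FPKM of each member in the libraries labelled primary hepatocytes (Pri) and in Hep-Orgs P1, P5 and P10, with means of 3 libraries as bars, SD as whiskers and single libraries as symbols. The groups overlap for Cyp1a1 and Cyp1b1, and the Ahrr panel spans 0 to 0.0118 FPKM.

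The highest Cyp1a1 and Cyp1a2 values of the study were in a Smart-Seq library, on that table's own scale. With 1 library for each shape there is no replicate check and no test, and the cDNA was amplified. For Cyp1a2 the grape-like library held 86.8 FPKM, the intermediate one 111 FPKM and the round-like one 18.2 FPKM. Cyp1a1 had 22.1, 78.7 and 15.1 FPKM in that order, so the intermediate library was the highest for both. Cyp1b1 instead was highest in the grape-like library, with 22.4 FPKM against 7.96 and 8.80 FPKM. Its share of the CYP1 sum was 17.1%, 4.02% and 20.9%.

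Ahr was lowest where Cyp1b1 was highest, with 4.50 FPKM in the grape-like library against 10.2 and 9.46 FPKM. Arnt had 27.1, 20.3 and 19.2 FPKM and Tiparp 11.4, 6.76 and 7.62 FPKM. Ahrr had 0.586, 0.192 and 0.171 FPKM, which is about 136, 45 and 40 fragments. Between the grape-like and the round-like library, 2 of 6 members above 1 FPKM (Cyp1a2 with a log2 difference of 2.20 and Cyp1b1 with 1.26) differed by at least 1, beside 21.8% of 12595 genes. Between the intermediate and the round-like library these were Cyp1a1 (2.31) and Cyp1a2 (2.55), beside 6.39%. From the intermediate to the grape-like library Ahr (-1.03) and Cyp1a1 (-1.79) were lower and Cyp1b1 (1.39) was higher by at least 1, beside 16.9%.

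Markers of several cell types differed between the same libraries. The hepatocyte markers summed to 10332 FPKM in the intermediate library, 6000 FPKM in the grape-like one and 1400 FPKM in the round-like one, and Alb, Ahsg and Fgb, which make up most of the sum, had the order of Cyp1a1 and Cyp1a2. The other markers did not, since Apoa1, Cyp3a11, Cyp2e1 and Cps1 were highest in the grape-like library, Ttr and Hnf4a were lowest there, and Cyp2f2 was above 0 only in the round-like one. The 10 cholangiocyte markers summed to 996 FPKM in the grape-like library against 4095 and 3477 FPKM in the others. All 8 stellate and mesenchymal markers were at 1 FPKM or more in the grape-like library, where they summed to 1510 FPKM, against 371 and 325 FPKM for 6 of 8 in the others. All 8 macrophage markers were at 1 FPKM or more in each library and summed to 8409, 2452 and 1306 FPKM. The 8 endothelial markers summed to 79.6, 31.8 and 13.6 FPKM. The part of these cell types in the values of the members was not tested.

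**Figure D4:**
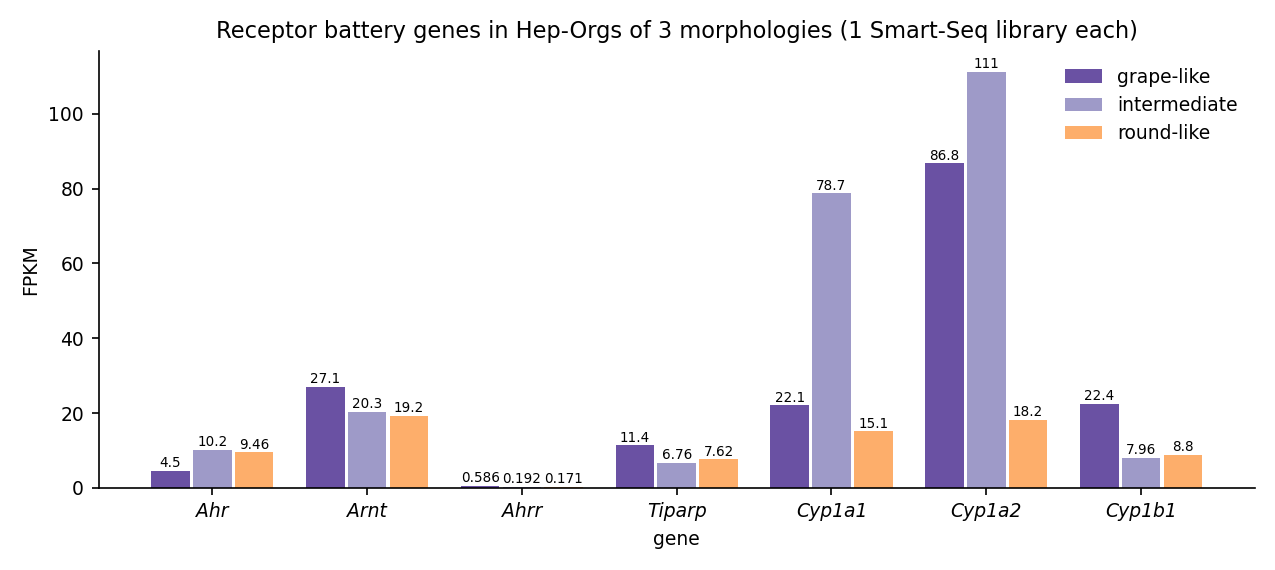
FPKM of the members in the Smart-Seq libraries of 3 shapes, 1 library each, with the value printed over each bar and a linear axis from 0. Cyp1a1 and Cyp1a2 are highest in the intermediate library (78.7 and 111 FPKM), and Cyp1b1 is highest in the grape-like one (22.4 FPKM).

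Other genes of the pathway, 32 in number, were read in the Cho-Orgs by their roles, and 24 passed the filter. They were not used to choose the members and were tested at each passage. The list itself was drawn up with earlier results of these data known. Of the 24, Aldh3a1, Arnt2, Fgf21 and Hif3a reached 1 FPKM only in some of the passages and so had to differ. They are described without a p, and the counts and medians below include them and are a description. From P0 to P5, 7 rose, with Aldh3a1 and Fgf21 among them, and 8 fell, with Arnt2 among them. Of all genes tested, 34% rose and 22.6% fell. From P5 to P10, 4 rose and 13 fell, beside 31% and 30.5%, with Aldh3a1, Fgf21 and Hif3a among the falls. From P0 to P10, 5 rose and 13 fell, beside 41% and 31.3%. Fgf21 was among those rises, and Arnt2 and Hif3a among those falls. The median log2 fold change of the 24 was -0.11, -0.18 and -0.27 in these comparisons, against 0.062, 0.0055 and 0.069 over all genes tested. With median-ratio size factors in place of the deposited scale, 3087 of 6536 genes called from P0 to P5 rose, in place of 3938 of 6559.

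In the cytosolic complex that holds the receptor, the chaperone gene Hsp90ab1 was the most abundant. It had means of 984, 859 and 1087 FPKM at P0, P5 and P10, and rose by 0.34 (SE 0.091) on the log2 scale from P5 to P10 (limma, adjusted p = 0.00904). The co-chaperone gene Ptges3 fell by 0.17 between the same passages (adjusted p = 0.0266). The chaperone gene Hsp90aa1 passed in no comparison of Cho-Orgs.

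Among the classical conjugating and oxidising genes of the battery, Nqo1, Aldh3a1, Gsta2 and Nfe2l2 were highest at P5. With Fgf21 and Por these were the 6 of 24 pathway genes (25%) whose P5 libraries all lay above the rest. The share among all genes tested was 13.3%. Nqo1, a quinone reductase that the receptor and Nrf2 both control, had 3.72, 2.50 and 3.83 FPKM at P0, 14.0, 17.5 and 15.9 FPKM at P5 and 2.61, 2.35 and 2.93 at P10. Each P5 library was far above the rest. Nqo1 rose by a log2 fold change of 1.96 (SE 0.13) from P0 to P5 (limma, adjusted p = 1.73e-06) and fell by 2.21 (SE 0.13) from P5 to P10 (adjusted p = 7.77e-07). Aldh3a1, an aldehyde dehydrogenase, had 0.452, 0.355 and 0.727 FPKM at P0, 1.75, 3.19 and 1.64 FPKM at P5 and 0.773, 0.742 and 0.743 at P10. The log2 differences were 1.05 from P0 to P5 and -0.83 from P5 to P10.

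Of 6 genes tested in that role, 3 rose and none fell from P0 to P5, beside 34% and 22.6% of all genes, and none rose and 5 fell from P5 to P10, beside 31% and 30.5%. Aldh3a1 is in both counts. The glutathione transferase gene Gsta2 rose by 0.59 from P0 to P5, with means of 11.3, 17.5 and 9.20 FPKM. Its copy Gsta1 fell from P0 to P10 by 1.47 (SE 0.49, limma, adjusted p = 0.0211), with 41.0, 15.1 and 57.3 FPKM at P0 and 12.5, 11.0 and 10.5 FPKM at P10, a call that was lost without the libraries numbered 3 (adjusted p = 0.152) and without the filter (adjusted p = 0.0644). Counts of these near-identical copies, and of Ugt1a6a and Ugt1a6b, are uncertain because the counting could split reads between them. Nfe2l2, which encodes Nrf2 and was the most abundant of this role, had means of 108, 115 and 90.1 FPKM and fell by 0.35 (SE 0.040) from P5 to P10 (adjusted p = 5.27e-05).

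Of the relatives of Arnt and the receptor in the bHLH-PAS family, Epas1 and Hif1a fell from P0 to P10 by limma, beside 31.3% of all genes, with log2 fold changes of -1.18 and -0.42. The log2 differences of Hif3a and Arnt2, admitted by their earlier passages, were -2.24 and -1.89. Arnt2, a second partner for such factors, was at 2.91, 5.16 and 3.88 FPKM at P0 and at 0.229 to 0.414 FPKM in the 6 later libraries. Hif3a had means of 5.03 and 4.28 FPKM at P0 and P5 and 0.253 FPKM at P10. Among the electron partners of P450 enzymes, Por rose from P0 to P5 by 0.26 (SE 0.044, limma, adjusted p = 0.000691) and fell from P5 to P10 by 0.14 (SE 0.044, adjusted p = 0.0167), with means of 123, 147 and 133 FPKM, whereas Cyb5a and Cyb5r3 fell in all 3 comparisons.

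Other genes reported as receptor targets went both ways. Of 6 tested from P0 to P5, 3 rose and 3 fell, beside 34% and 22.6% of all genes. Fgf21, a liver hormone and one of the 3, had means of 0.203, 4.26 and 1.83 FPKM at the 3 passages. Ereg, a ligand of the EGF receptor, rose by 1.83 from P0 to P5 and by 2.42 from P0 to P10, and had 28.6, 29.3 and 28.6 FPKM at P10. The amino acid transporter gene Slc7a5 rose by 1.59 from P0 to P10, to a mean of 80.1 FPKM. Socs2 fell by 0.73 from P0 to P5 and rose by 1.38 from P5 to P10. Xdh and the monooxygenase gene Fmo2 fell from P0 to P5 by 1.82 and 1.05. Of the 5 enzymes that make tryptophan-derived ligands, only Kyat1 was above the filter, with means of 10.2, 6.94 and 7.28 FPKM, and it fell by 0.50 from P0 to P5 (adjusted p = 0.000294). Ido1 and Il4i1 were listed at 0 in all 9 libraries.

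**Figure D5:**
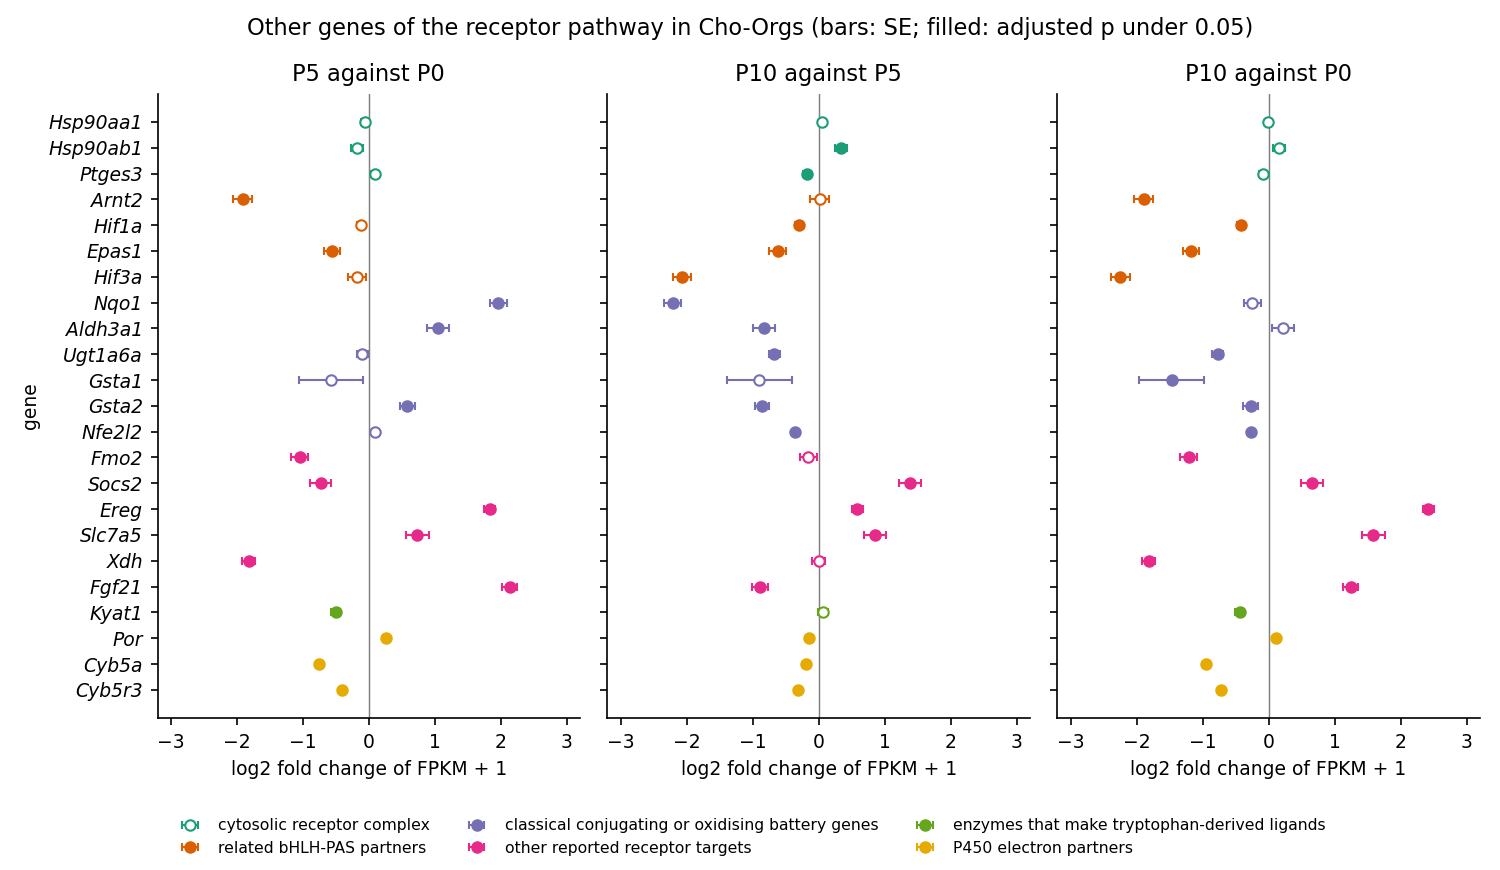
Log2 fold changes of FPKM + 1 for other pathway genes that passed the filter in Cho-Orgs, in 3 comparisons of passages and coloured by role. Points are estimates from limma, bars are SE, and filled points passed an adjusted p of 0.05, a filter having admitted Aldh3a1, Arnt2, Fgf21 and Hif3a only through some passages. Nqo1 lies at 1.96 from P0 to P5 and at -2.21 from P5 to P10.

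In the hepatocyte table, 19 of the 32 pathway genes passed the filter and 0 passed the test in any of the 6 pairs, by limma and by limma-voom alike, with 0 to 5 unadjusted p under 0.05 for each pair by limma. Nqo1 had means of 0.280 to 0.4997 FPKM there and Hif3a of 22.2 to 23.9 FPKM. In the Smart-Seq libraries Nqo1 had 1.53, 1.36 and 0.829 FPKM from grape-like to round-like, while Gsta1 had 0.174, 14.2 and 4.53 FPKM.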

How the data were processed

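Poly(A) RNA of 21 bulk libraries and amplified cDNA of 3 Smart-Seq libraries had been sequenced. The authors deposited 3 tables of FPKM, 1 for each experiment. The submitters' processing notes name featureCounts 2.0.3, edgeR 3.40.2 and mm10, with no role or order. The aligner and annotation release are not given in the sources used here. In the hepatocyte table FPKM multiplied by gene length gave whole fragments (tolerance 0.02). Depth in the other tables was estimated from the steps between low values and is approximate. No table holds columns of other samples (0 columns).

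Groups follow the labels. Differences were fitted on log2(FPKM + 1) in R 4.3.3 with limma 3.58.1 (lmFit, eBayes with trend, two-sided), for genes with at least 1 FPKM in at least 3 libraries. All groups of a table shared 1 estimate of the spread. Adjustment followed Benjamini and Hochberg over all genes tested, with a threshold of 0.05. Fold changes on this scale understate those of low genes. The fit was tested on simulated data. Values were tabulated with pandas 2.3.3, scipy 1.17.1 and numpy 2.4.6 in Python 3.11.15 and plotted with matplotlib 3.10.9.

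The figure legends of the study describe the numbered replicates as mice and its methods as cultures. Deviations of same-numbered libraries had a median correlation of -0.0063 in the Cho-Org table (9 pairs, -0.074 to 0.12) and -0.0016 in the hepatocyte table (18 pairs). The block by replicate number was therefore an alternative, and its value is given for Ahr, the 1 member whose call it changed.

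The members, pathway genes and marker lists were chosen with earlier results of these data known. The text names all members, pathway genes past the threshold by at least 1 in log2 or highest in their role, and the 5 properly named genes most correlated with Cyp1b1. Other pathway genes named beside them were chosen after their values were seen. The values of 1 pathway gene are not reported here. Promoter windows came from RefSeq and exons from GENCODE M21. Alternatives were a pseudocount of 0.1, no filter, a mean of at least 5 FPKM, median-ratio size factors, rescaling to TPM, no trend in eBayes, the replicate block, only the groups compared, and leaving out each replicate. A limma-voom fit on recovered fragments and Cyp1a1 folds without 1 library of P10 were added after seeing the data.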

Additional observations from a re-analysis of the deposited data

How the results depend on the processing

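Of the members with a test from P0 to P10 in Cho-Orgs, Tiparp passed under every alternative. Arnt lost its call without the libraries numbered 2 or those numbered 3, and Ahr passed under some alternatives only. Cyp1a1 and Cyp1a2 are left out here, since the filter admitted them by their high passages. With the replicate block Ahr passed as well. Of the 24 pathway genes, 17 passed in place of 18, while 15 and 17 passed from P0 to P5 and from P5 to P10 as before. Aldh3a1, Arnt2, Fgf21 and Hif3a, admitted only through some passages, belong to these 24. In the fit described above, 72.3% of all genes passed from P0 to P10, 56.6% from P0 to P5 and 61.5% from P5 to P10. With the block, 8278, 6381 and 6939 of the 11593 genes tested passed in the same order. No pathway gene with a called log2 change of at least 1 lost its call under the block. Under every alternative 0 members and 0 pathway genes passed among the hepatocyte libraries. Directions turned in 3 cases, all of differences near 0. The Cyp1b1 change from P1 to P5 in Hep-Orgs ranged from -0.16 to 0.040 when replicates were left out in turn (0.040 without those numbered 2), the Ahr difference from P5 to P10 in Cho-Orgs from -0.0074 (without those numbered 3) to 0.091, and the Cyp1b1 log2 ratio of intermediate to round-like was 0.0041 with median-ratio size factors. With a pseudocount of 0.1 the difference of Cyp1a1 from P5 to P10 was -4.77 in place of -2.21, and the change from P0 to P10 was -5.80 for Cyp1a1 and -7.24 for Cyp1a2 in place of -3.10 and -4.01. A pseudocount of 1 shrinks the fold changes of low genes more than a pseudocount of 0.1 does. The cause of the other shifts was not tested. Values without replicates rest on 1 library each, and levels under 3 fragments (Cyp1a2 at P10, Cyp1a1 in M1 and M2 of P10, Ahrr in the hepatocyte table) are not detectable at this depth.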
